A study of Arabidopsis thaliana with 6 samples.

Results

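Transcripts of 10 Arabidopsis thaliana genes were followed across RNA sequencing of leaves from 3 transgenic lines and 3 wild-type (WT) samples. They encode parts of the protein complex that starts leaf hairs, or act downstream of it. The genes were taken by locus from the 21981 rows of the deposited table, and all 10 were present. They are the R2R3 MYB genes GL1 (AT3G27920), MYB23 (AT5G40330) and MYB5 (AT3G13540), the bHLH genes GL3 (AT5G41315), EGL3 (AT1G63650), MYC1 (AT4G00480) and TT8 (AT4G09820), the WD40 gene TTG1 (AT5G24520), and the downstream genes GL2 (AT1G79840) and TTG2 (AT2G37260). The lines are named transgenic lines 1, 2 and 3, are of the Col-0 accession like WT, and carry a transgene that the labels do not name. Leaves of all 6 samples came from plants of 4 weeks, and the sampling note for all 6 speaks of drought treatment without separating the groups. On the RefSeq annotation TAIR10.1 GL1 lies at chr3:10361790-10363607, MYB23 at chr5:16127725-16129661 and MYB5 at chr3:4419960-4421751. GL3 lies at chr5:16529090-16533287, EGL3 at chr1:23599413-23603164, MYC1 at chr4:216812-219926 and TT8 at chr4:6181881-6186523. TTG1 lies at chr5:8370317-8372847, GL2 at chr1:30036956-30041440 and TTG2 at chr2:15644811-15647076, and the table gives 1 value per locus. The labels do not say whether a line is 1 transformant or whether the WT samples came from separate plants, so a p-value here measures the spread between samples as deposited, and part of that spread may be technical.

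Trichomes are single, branched hair cells of the epidermis. In an epidermal cell a MYB, a bHLH and the WD40 protein TTG1 join into an activator complex, which switches on GL2 and TTG2 and thereby commits the cell to become a trichome. The same complex switches on small single-repeat MYB proteins, which move into neighbouring cells and displace the activating MYB there. With other MYB partners the bHLH and WD40 proteins also control flavonoid pigments and seed coat mucilage.

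Values are FPKM, fragment counts scaled for transcript length and library size, as deposited by the authors. They were compared as log2(FPKM + 1) with limma, a linear model with variances shared across genes, in which a gene was tested if its mean over the 6 samples was at least 1 FPKM and called where its p, adjusted by Benjamini-Hochberg over 17093 genes, was under 0.05. Fold changes are transgenic over WT on that scale, where the added 1 shrinks the change of low genes. Summed FPKM ran from 1261802.3 to 1278448.8 in the transgenic lines and from 970375.9 to 982619.9 in WT. Other scalings, 3 in number, were therefore set beside the values as deposited: median-of-ratios factors, quantile normalization and rescaling of each sample to a sum of 1000000 (TPM). The last moved the median log2 fold change of all tested genes to -0.31, against 0.03 as deposited.

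The downstream homeodomain gene GL2 and the bHLH gene MYC1 fell in the transgenic lines, and none of the 10 genes was called higher (limma). At an unadjusted p under 0.05, 0 of the tested ones were higher and 3 lower. Of all 17093 tested genes, 4898 were higher and 3392 lower at that level. GL2 averaged 0.679 ± 0.21 FPKM in the transgenic lines and 4.06 ± 0.283 FPKM in WT (SD, n = 3 each). MYC1 averaged 1.42 ± 0.432 FPKM in the transgenic lines and 3.68 ± 0.733 FPKM in WT. TTG1, the scaffold of the complex and by far its most abundant transcript, averaged 37.5 ± 2.83 FPKM in the transgenic lines and 35.2 ± 1.59 FPKM in WT. Of the 10 genes, 5 reached the mean of 1 FPKM and 2 of those 5 were called lower, where 15.7% of all tested genes were called lower and 25.0% higher. After rescaling to TPM all 5 were called lower, where 48.9% of tested genes were. GL2 reached that mean through WT alone, as its 3 transgenic values were each under 1 FPKM. In the fit with no filter GL2 was also called lower (limma adjusted p = 0.000141). All 3 transgenic values lay below all 3 WT values for 5 of the 10 genes (EGL3, MYC1, TT8, GL2 and TTG2), where 20.0% of the 21420 genes above 0 in any sample did so. The leaf was sequenced in bulk, so fewer cells of a type and less RNA per cell cannot be told apart.

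**Figure D1:**
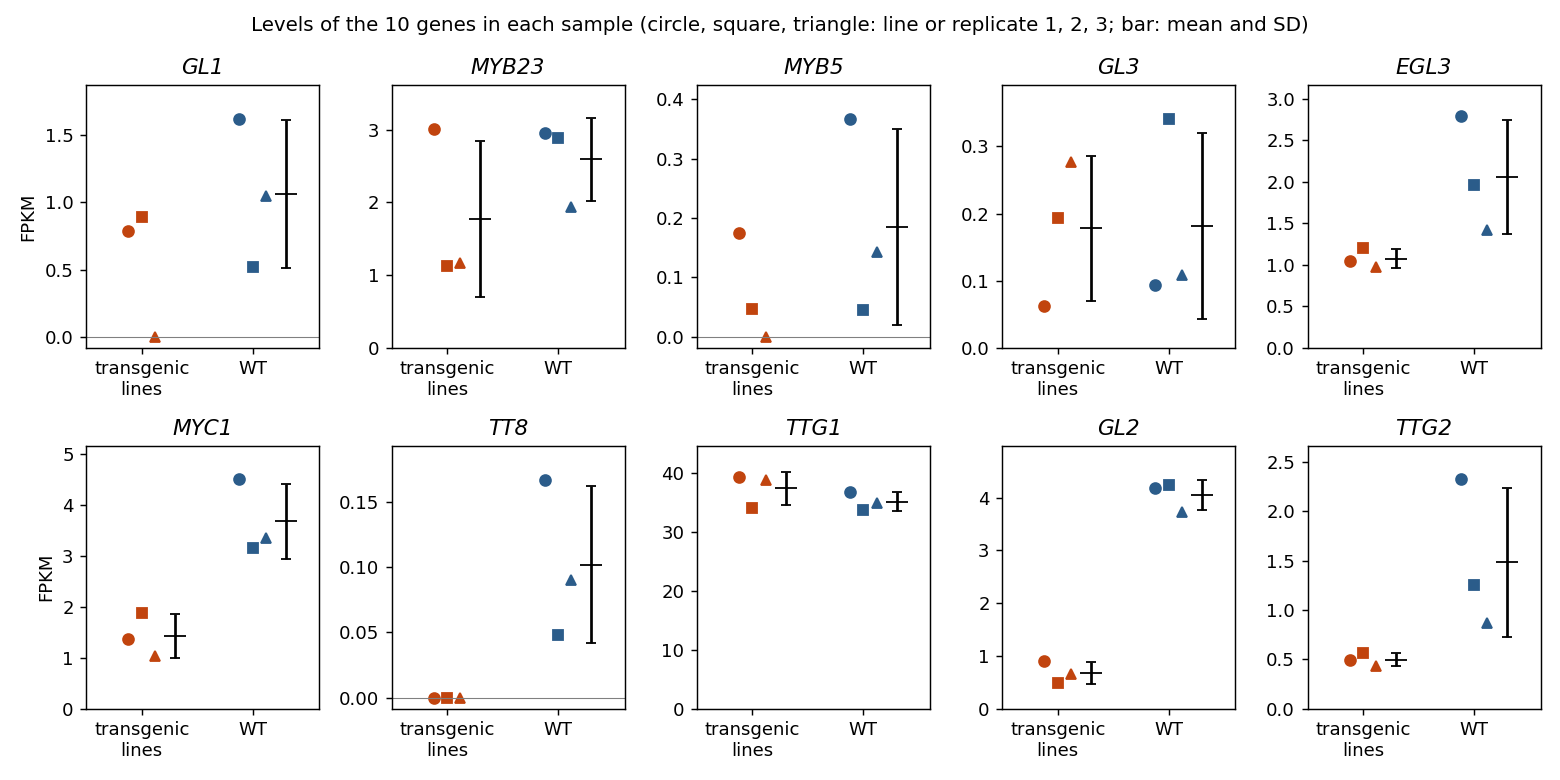
FPKM of each of the 10 genes (vertical axes, linear, 1 scale per panel) in the 3 transgenic lines (red, left) and the 3 WT samples (blue, right), with the mean and SD as a black bar where no sample of the group is at 0. GL2, MYC1, EGL3, TTG2 and TT8 have all transgenic points below all WT points, and TTG1 lies between 33.7 and 39.4 FPKM in all 6 samples.

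The upstream sequences of MYC1, the bHLH gene called lower, and of both downstream genes are shown with that of TTG1, whose groups overlapped. Each is the 250 bases before the annotated gene start, read 5′ to 3′ in the direction of transcription from the RefSeq genome TAIR10.1. GL2 is at chr1:30036706-30036955 (plus strand), MYC1 at chr4:219927-220176 (minus strand), TTG2 at chr2:15644561-15644810 (plus strand) and TTG1 at chr5:8372848-8373097 (minus strand). Capitals mark 2 kinds of motif on either strand, the E-box CANNTG, a core bound by bHLH proteins, and CNGTTA or CNGTTG, cores bound by MYB proteins.
GL2: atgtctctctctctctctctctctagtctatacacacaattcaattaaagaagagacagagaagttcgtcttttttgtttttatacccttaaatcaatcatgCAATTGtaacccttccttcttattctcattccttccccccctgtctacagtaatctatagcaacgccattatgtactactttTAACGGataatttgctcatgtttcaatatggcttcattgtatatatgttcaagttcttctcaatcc
MYC1: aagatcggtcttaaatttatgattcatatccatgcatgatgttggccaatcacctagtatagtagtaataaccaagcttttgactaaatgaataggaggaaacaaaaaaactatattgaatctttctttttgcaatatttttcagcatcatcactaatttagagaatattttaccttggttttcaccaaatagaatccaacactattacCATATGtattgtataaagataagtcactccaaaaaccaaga
TTG2: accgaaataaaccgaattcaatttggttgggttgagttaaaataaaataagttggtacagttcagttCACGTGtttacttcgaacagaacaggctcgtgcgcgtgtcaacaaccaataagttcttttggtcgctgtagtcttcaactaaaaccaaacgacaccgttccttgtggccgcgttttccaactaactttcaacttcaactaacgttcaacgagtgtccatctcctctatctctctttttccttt
TTG1: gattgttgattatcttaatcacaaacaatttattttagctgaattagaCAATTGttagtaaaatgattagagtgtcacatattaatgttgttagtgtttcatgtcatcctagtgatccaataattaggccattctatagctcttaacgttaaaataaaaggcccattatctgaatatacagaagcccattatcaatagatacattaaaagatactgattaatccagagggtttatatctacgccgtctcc
The GL2 window held the E-box CAATTG starting 148 bases before the gene start and the MYB core TAACGG starting 66 bases before it, and they did not overlap. MYC1 held 1 E-box, CATATG, at 41 bases, TTG2 held CACGTG at 183 bases, and TTG1 held CAATTG at 202 bases, with no MYB core in these 3 windows. Of the 10 genes, 8 had an E-box in this window and 3 a MYB core, against 55.3% and 40.7% of the 27443 windows of protein-coding genes. The 6-base MYB match of GL1 is the same CAACTG as 1 of its E-boxes. These letters are a description of the windows and not evidence of binding.

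Among the MYB genes, GL1 is the classic activator of trichome initiation on leaves. GL1 had 0.786, 0.888 and 0 FPKM in transgenic lines 1, 2 and 3, against 1.62, 0.519 and 1.05 FPKM in WT replicates 1, 2 and 3. The groups overlapped, and line 3 was listed at 0. GL1 lay below the filter with a mean of 0.81 FPKM, and in the limma fit with no filter its log2 fold change was -0.42 (SE 0.293, adjusted p = 0.331). It was -0.13 without line 3, -0.24 without WT replicate 1 and -0.63 without WT replicate 2. MYB23, a close relative of GL1 that shares its role and acts in branching, had 3.01, 1.13 and 1.17 FPKM in lines 1, 2 and 3, against 2.95, 2.89 and 1.93 FPKM in WT. Line 1 was just above the highest WT sample while lines 2 and 3 lay below every WT sample. The log2 fold change of MYB23 was -0.43 (SE 0.27, 95% confidence interval -1.04 to 0.19, limma adjusted p = 0.247), and without line 1 it was -0.72 with an adjusted p of 0.0268. It was -0.27 without line 2 (adjusted p = 0.504) and -0.28 without line 3 (0.491).

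MYB5, which acts mainly in the seed coat and in part in trichomes, had 0.175, 0.0463 and 0 FPKM in lines 1, 2 and 3, against 0.367, 0.0458 and 0.143 FPKM in WT. These levels stood at a median percentile of 11.1 among all genes of a sample. The gene lies whole inside AT3G13530 on the opposite strand, which was at 8.27 to 9.27 FPKM in the lines and 7.35 to 8.17 FPKM in WT, and the sources used here do not say whether strand was counted. The 3 MYB genes summed to 3.97, 2.07 and 1.17 FPKM in lines 1, 2 and 3, against 4.93, 3.45 and 3.12 FPKM in WT. MYB23 made up 54.8% or more of that sum in each line and 59.8% to 83.6% in WT.

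Among the bHLH genes, MYC1, a positive regulator of trichome and root hair patterning, had 1.36, 1.88 and 1.03 FPKM in lines 1, 2 and 3, against 4.52, 3.16 and 3.36 FPKM in WT. The highest line was below the lowest WT sample, and the transgenic mean was 0.387 of the WT mean. The log2 fold change was -0.95 (SE 0.198, 95% confidence interval -1.4 to -0.51, limma adjusted p = 0.00409). The adjusted p ran from 0.000754 to 0.0211 over the 13 alternatives that could be fitted, left-out samples included.

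EGL3, which shares the role of GL3 in trichome initiation, had 1.05, 1.2 and 0.978 FPKM in lines 1, 2 and 3, against 2.79, 1.96 and 1.42 FPKM in WT. The lines were close together and all below WT, while the WT samples spread over a wider range. The transgenic mean was 0.522 of the WT mean, and the log2 fold change of -0.54 (SE 0.213, unadjusted 95% confidence interval -1.02 to -0.06) missed the threshold with a limma adjusted p of 0.0739. EGL3 passed it without WT replicate 3 (log2 fold change -0.69, adjusted p = 0.0465) and after rescaling to TPM (-0.73, adjusted p = 0.0138). It was at -0.37 without WT replicate 1 (adjusted p = 0.246) and at -0.37 after quantile normalization (0.206).

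GL3, the bHLH gene named for its trichome defect, had 0.0627, 0.194 and 0.277 FPKM in lines 1, 2 and 3, against 0.0937, 0.341 and 0.109 FPKM in WT. The groups overlapped almost entirely. GL3 overlaps a non-coding RNA gene on the opposite strand by 36 bases. In the limma fit with no filter the 95% confidence interval of its log2 fold change ran from -0.28 to 0.27 (adjusted p = 0.991). TT8, known for pigment synthesis in the seed coat, was listed at 0 in all 3 lines and had 0.167, 0.0483 and 0.0902 FPKM in WT. It had the lowest mean of the 10 genes in both groups, and no fold is given against values of 0. The 4 bHLH genes summed to 2.47, 3.27 and 2.28 FPKM in lines 1, 2 and 3, against 7.56, 5.51 and 4.99 FPKM in WT. MYC1 and EGL3 carried nearly all of that sum in both groups: MYC1 made up 45.0% to 57.6% in the lines and 57.3% to 67.4% in WT, and EGL3 36.5% to 42.9% in the lines and 28.6% to 36.8% in WT.

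TTG1 encodes the WD40 protein common to every version of the complex. It had 39.4, 34.2 and 38.8 FPKM in lines 1, 2 and 3, against 36.9, 33.7 and 34.9 FPKM in WT. The groups overlapped, and the log2 fold change was 0.09 (SE 0.0769, 95% confidence interval -0.09 to 0.26, limma adjusted p = 0.401). The direction turned with scaling, to -0.07 after quantile normalization (adjusted p = 0.495) and to -0.28 after rescaling to TPM (adjusted p = 0.0106). Relative to the median log2 fold change of all genes, TTG1 was at 0.06 as deposited, -0.06 after quantile normalization and 0.03 after TPM. TTG1 was at 10.5 to 17 times the bHLH sum in the lines and 4.88 to 7.0 times that sum in WT, on the FPKM scale, and the groups did not overlap.

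GL2 encodes a homeodomain (HD-ZIP IV) protein that acts after the complex and keeps the trichome growing. GL2 had 0.902, 0.484 and 0.652 FPKM in lines 1, 2 and 3, against 4.19, 4.25 and 3.73 FPKM in WT. Every line was far below every WT sample, and the transgenic mean was 0.167 of the WT mean. The log2 fold change was -1.6 (SE 0.176, 95% confidence interval -2.0 to -1.2, limma adjusted p = 8.88e-05), and relative to the median of all genes it was -1.62 as deposited, -1.43 after quantile normalization and -1.44 after TPM. The GL2 gene overlaps the protein-coding gene AT1G79850 on the opposite strand by 198 bases, and a non-coding RNA gene on the same strand by 155 bases. AT1G79850 had 571, 477 and 537 FPKM in lines 1, 2 and 3, against 347, 356 and 346 FPKM in WT, the direction opposite to GL2.

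TTG2, a WRKY gene of trichome outgrowth and seed coat development, had 0.496, 0.562 and 0.435 FPKM in lines 1, 2 and 3, against 2.33, 1.25 and 0.869 FPKM in WT. All lines were below all WT samples, and WT replicate 1 was well above the other two. With a mean of 0.99 FPKM TTG2 lay just below the filter, while EGL3, at 1.57 FPKM, was the lowest of the 10 above it. In the limma fit with no filter TTG2 had a log2 fold change of -0.69 (SE 0.209, adjusted p = 0.0424) and brought the number of the 10 genes called lower to 3, where 12.8% of 21420 genes were called lower. That call ended without line 1, 2 or 3 (adjusted p = 0.114, 0.105 and 0.124), without WT replicate 2 (0.098) and after quantile normalization (0.104).

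**Figure D2:**
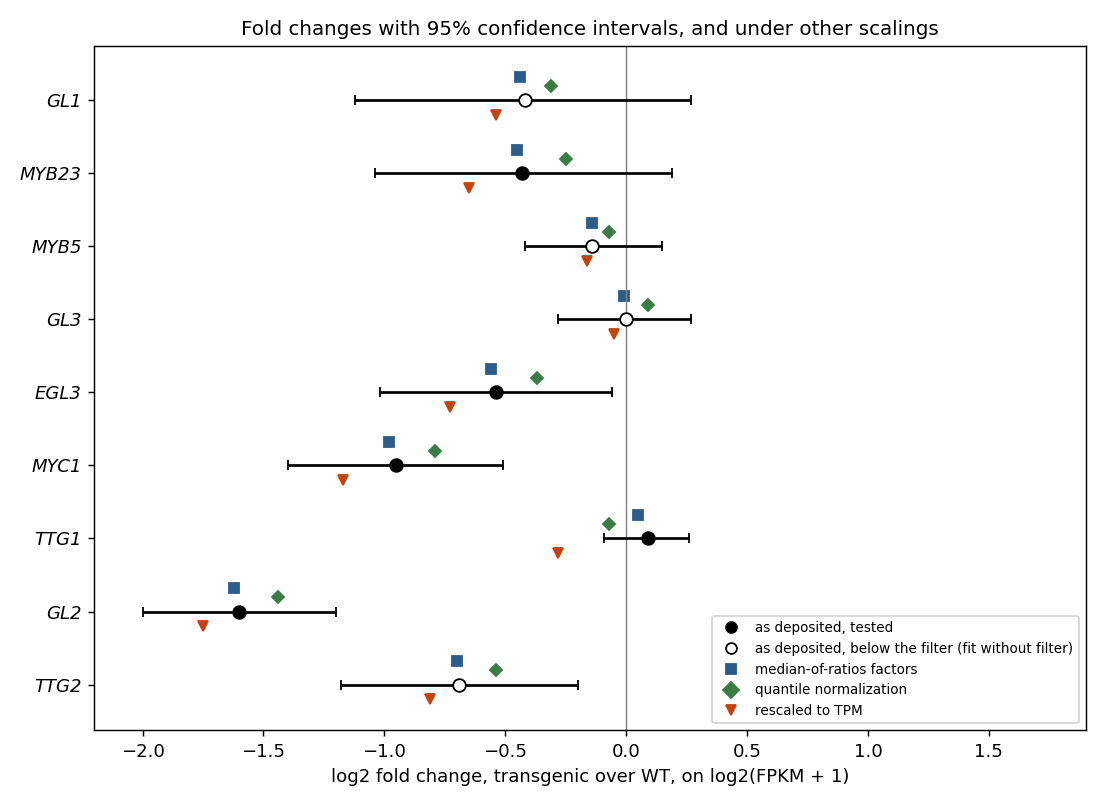
Log2 fold change, transgenic over WT, on the log2(FPKM + 1) scale (horizontal axis) of 9 of the 10 genes, with limma's 95% confidence interval as a line, and the same quantity under 3 other scalings as coloured marks. GL2 and MYC1 stay left of 0 under each scaling shown, as do GL1, MYB23, MYB5, EGL3 and TTG2, while TTG1 and GL3 have marks on both sides of 0. The confidence intervals of GL1, MYB23 and MYB5 cross 0. Rescaling to TPM moved the median of all genes below 0. Relative to that median MYB5 was at 0.09, GL1 at -0.29 and MYB23 at -0.34. TT8 is left out because it is listed at 0 in all 3 lines.

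The order of the 10 genes by mean FPKM was led by TTG1 in both groups, with its range apart from the next gene in each. In the lines MYB23, MYC1 and EGL3 followed, at means of 1.77, 1.42 and 1.07 FPKM, and neighbours among these 3 overlapped. In WT GL2 and MYC1 followed, at 4.06 and 3.68 FPKM with overlapping ranges, then MYB23 and EGL3 at 2.59 and 2.06 FPKM, also overlapping. GL2 had rank 5 in the lines, where its range overlapped that of GL1. WT replicate 1 gave the highest WT value for 8 of the 10 genes, and for 39.6% of all tested genes.

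Each gene was also set against TTG1 of the same sample, as log2((FPKM + 1) of the gene over that of TTG1). With 1 added, a factor that scales a whole sample cancels only in part for genes near or below 1 FPKM. For GL2 the ratio averaged -4.52 ± 0.0983 in the lines and -2.84 ± 0.102 in WT (SD, n = 3 each), a difference of -1.68 with an exact two-sided permutation p of 0.1. The ratio of MYC1 averaged -4.0 ± 0.352 in the lines and -2.96 ± 0.158 in WT, a difference of -1.04 (exact permutation p = 0.1). EGL3 and TTG2 differed by -0.62 and -0.78, each also with an exact permutation p of 0.1. Of the 9 ratios 6 were lower in every line than in every WT sample, the other 2 being those of MYB5 and TT8, both near the value that the pseudocount alone gives. With 3 against 3 no p under 0.1 is possible, and adjusted over the 9 ratios these 6 stood at 0.15. How many of all genes have such a ratio to TTG1 was not tested, so the count of 6 has no background. All 9 ratios share TTG1, whose mean was higher in the lines, and MYB5 overlapped between the groups in FPKM. The ratios of GL1, MYB23 and GL3 overlapped between the groups. With no pseudocount, where such a factor cancels, the 6 genes above 0 in every sample could be compared, in an alternative added after the data were seen. The differences were then -2.71 for GL2, -1.49 for MYC1, -1.55 for TTG2 and -0.98 for EGL3, each with every line below every WT sample and an exact permutation p of 0.1, while MYB23 (-0.77) and GL3 (-0.11) overlapped.

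**Figure D3:**
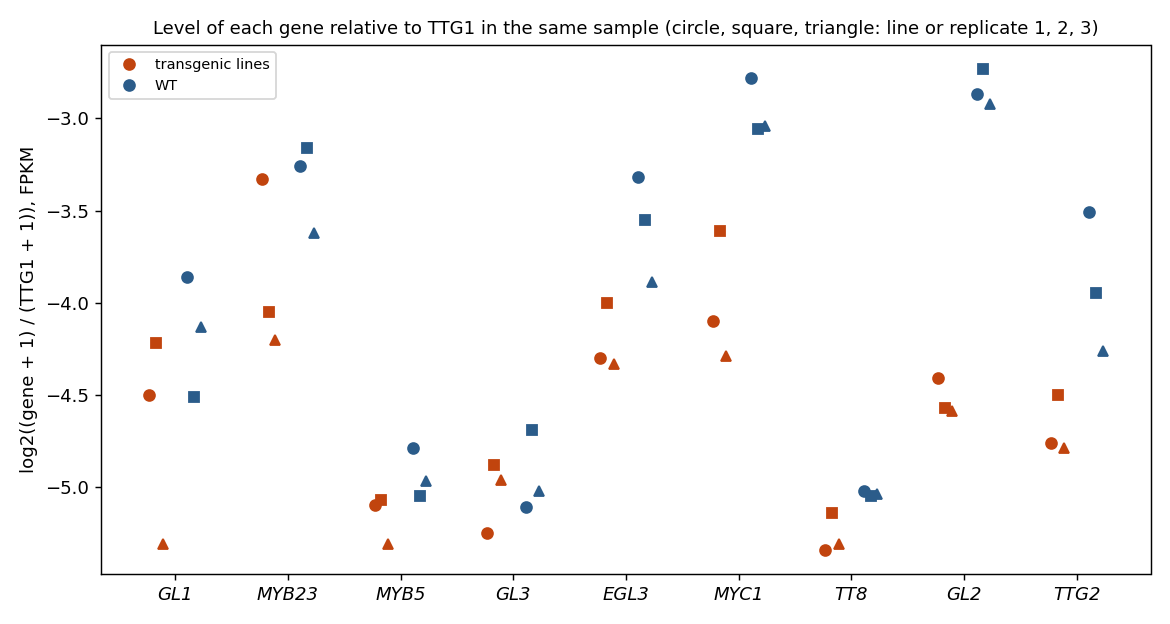
Level of each gene relative to TTG1 in the same sample, as log2((FPKM + 1) / (TTG1 FPKM + 1)) (vertical axis), for the 3 transgenic lines (red, left of each pair) and the 3 WT samples (blue, right). The widest gap between groups is at GL2, with the lines at -4.59 to -4.41 and WT at -2.92 to -2.73.

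The single-repeat R3 MYB repressors, of which the complex itself switches on some but not all, had values on both sides of WT. Of 7 listed, 6 were in the table and 5 were tested, with 0 called by limma as deposited (2 lower and 0 higher at an unadjusted p under 0.05) and 1, 2 and 0 called lower after quantile normalization, TPM and median-of-ratios scaling. Of all tested genes, 15.7% were called lower and 25.0% higher as deposited, and 48.9% lower after TPM. At an unadjusted p under 0.05, 3392 of the 17093 tested genes were lower and 4898 higher. After quantile normalization 3448 of them were called lower, and 3007 with median-of-ratios factors. Single samples decided several calls among the repressors. Without line 1, TCL2 was called lower (log2 fold change -1.29, limma adjusted p = 0.000358) and TCL1 higher (1.3, adjusted p = 0.0316), and without line 3 ETC1 was called lower (-1.39, adjusted p = 0.0125). TCL2 was also called lower at a mean of at least 5 FPKM (-0.85, adjusted p = 0.0494). TCL2 was the most abundant, at 31.5, 10 and 14.4 FPKM in lines 1, 2 and 3 and 33.2, 27.8 and 32.3 FPKM in WT, so that line 1 was within the WT range and lines 2 and 3 were below it, while for MYB23 too line 1 was the highest of the lines. CPC had 5.29, 7.3 and 4.28 FPKM in the lines, against 6.46, 5.51 and 5.9 FPKM in WT, and ETC1 had 0, 0.141 and 1.59 FPKM, against 0.88, 2.92 and 1.96 FPKM in WT. The highest values of CPL3 and TCL1 lay in the lines, at 3.25, 5.99 and 1.48 FPKM for CPL3 against 0, 2.11 and 2.21 FPKM in WT, and at 1.65, 2.78 and 8.05 FPKM for TCL1 against 0.916, 1.08 and 2.32 FPKM in WT. TRY was below the filter, at 0, 2.24 and 0 FPKM in the lines and 0.26, 1.28 and 1.8 FPKM in WT. The sum of the 6 repressors was 10.5, 13.8 and 25.5 times the sum of the 3 MYB activators in lines 1, 2 and 3, against 8.46, 11.8 and 14.9 times in WT, and the groups overlapped.

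Of 15 regulators that act upstream of or beside the complex, 14 were in the table and 9 were tested, with 3 lower and 3 higher (median log2 fold change 0.13). Of all tested genes, 15.7% were called lower and 25.0% higher. ZFP8, a zinc finger gene of hormone-dependent trichome initiation, had 5.12, 7.72 and 6.25 FPKM in the lines, against 23.3, 18.0 and 19.5 FPKM in WT (log2 fold change -1.54, SE 0.149, limma adjusted p = 3.83e-05). SPL9, which represses trichomes on the stem, fell to 4.03, 3.49 and 4.1 FPKM in the lines, against 9.64, 7.58 and 6.23 FPKM in WT. GAI, a DELLA repressor of gibberellin signalling, fell by 0.75 on the log2 scale. Its relative RGA rose, at 83.0, 78.4 and 77.8 FPKM in the lines, against 66.8, 67.5 and 63.5 FPKM in WT. The 3 higher genes, RGA, TOE1 and GEM, had log2 fold changes of 0.27, 0.23 and 0.26 as deposited, 0.23, 0.2 and 0.23 with median-of-ratios factors, and 0.03, 0.12 and 0.23 after quantile normalization. After TPM, which moved the median of all tested genes to -0.31, they were at -0.1, -0.13 and -0.09. None of the 3 was called by limma after quantile normalization (adjusted p = 0.747, 0.214 and 0.0598) or TPM (0.139, 0.131 and 0.375). TOE1 also missed the threshold without line 1, line 2, WT replicate 1 or WT replicate 2 (adjusted p = 0.0599, 0.0613, 0.0735 and 0.0561). GEM missed it with median-of-ratios factors (0.0554) and without any 1 sample other than line 3 (0.0666 to 0.0932). ZFP8, SPL9 and GAI kept their calls under each alternative in which they were tested. In the fit with no filter 4 of the 14 were called lower and 3 higher, where 2751 and 4130 of 21420 genes were. The added lower gene was the zinc finger gene ZFP6 (log2 fold change -0.65, limma adjusted p = 0.0118). It was listed at 0 in all 3 lines and had 0.277, 0.618 and 0.884 FPKM in WT.

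Genes at work in the trichome cell itself were split. Of 12 listed, 11 were tested, with 4 lower and 2 higher (median log2 fold change -0.2), and 8 lower and 1 higher after TPM. Of all tested genes, 15.7% were called lower and 25.0% higher as deposited, and 48.9% lower after TPM. The MIXTA-like MYB16, a regulator of epidermal cell shape and cuticle, had 2.01, 2.5 and 1.63 FPKM in the lines, against 10.9, 13.0 and 11.3 FPKM in WT (log2 fold change -2.07, SE 0.147, limma adjusted p = 5.03e-06). Its relative MYB106, which overlaps a non-coding RNA gene on the opposite strand, fell to 0.629, 0.778 and 1.44 FPKM in the lines, against 4.04, 2.43 and 2.47 FPKM in WT, and GTL1, which ends trichome growth, fell by 1.02 on the log2 scale. EXO70H4, an exocyst subunit needed for wall thickening in mature trichomes, was in the opposite direction and rose, with 4.52, 6.42 and 6.53 FPKM in the lines, against 3.15, 2.55 and 2.37 FPKM in WT (log2 fold change 0.88, SE 0.17, adjusted p = 0.00275). MYB16, MYB106, GTL1 and EXO70H4 kept their calls under each alternative in which they were tested. The remaining lower gene, SIM (log2 fold change -0.5, limma adjusted p = 0.0171), lost the call without WT replicate 1 (0.0668). The remaining higher gene, TBR (0.52, adjusted p = 0.000539), lost it after TPM (0.128).

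Among 14 HD-ZIP IV relatives of GL2, 12 were in the table and 7 were tested, with 1 lower and 0 higher (median log2 fold change -0.13). Of all tested genes, 15.7% were called lower and 25.0% higher. The 1 relative called lower was ATML1, which specifies the epidermis, at 19.2, 19.0 and 19.3 FPKM in the lines, against 23.7, 24.3 and 21.7 FPKM in WT (log2 fold change -0.27, SE 0.0774, limma adjusted p = 0.022). It lost the call without line 2 (adjusted p = 0.0578), WT replicate 1 (0.0679) or WT replicate 2 (0.0845). After TPM 5 of the 7 were called lower, where 48.9% of all tested genes were. In the fit with no filter 2 of 12 were called lower, where 12.8% of 21420 genes were. These were ATML1 and HDG12 (log2 fold change of HDG12 -0.52, limma adjusted p = 0.0418, against 0.0901 with the filter). HDG12 had 0.6, 0.955 and 0.416 FPKM in the lines, against 1.14, 1.28 and 1.69 FPKM in WT.

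Most genes listed for the flavonoid branch of the same complex lay below the filter. Of 10 flavonoid enzyme and transport genes, 2 were tested and 0 were called by limma as deposited (1 higher at an unadjusted p under 0.05, and 1 called higher with no filter and 1 after quantile normalization). Of all 17093 tested genes, 4898 were higher at that unadjusted p, and 3270 were called higher after quantile normalization. With no filter 4130 of 21420 genes were called higher. The 1 called with no filter was LDOX (log2 fold change 0.71, limma adjusted p = 0.0391), and 0 were called lower in that fit. LDOX had 0.685, 0.664 and 1.7 FPKM in the lines, against 0.039, 0.35 and 0.24 FPKM in WT. Of 6 flavonoid MYB genes 2 were tested, and both were lower, where 15.7% of all tested genes were. MYB113, a relative of PAP1, lay below the filter and was called higher in the limma fit with no filter (log2 fold change 0.82, adjusted p = 0.0377), at 0.949, 0.471 and 1.95 FPKM in the lines, against 0.091, 0.0911 and 0.282 FPKM in WT. PAP1, the anthocyanin activator that partners TT8 and TTG1, had 1.8, 2.05 and 3.31 FPKM in the lines, against 6.59, 5.84 and 6.49 FPKM in WT (log2 fold change -1.13, SE 0.181, limma adjusted p = 0.000915). MYBL2, a single-repeat MYB repressor of the same pigments, had 48.3, 46.6 and 54.0 FPKM in the lines, against 85.8, 92.8 and 92.3 FPKM in WT (log2 fold change -0.85, SE 0.0698, adjusted p = 1.27e-05).

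**Figure D4:**
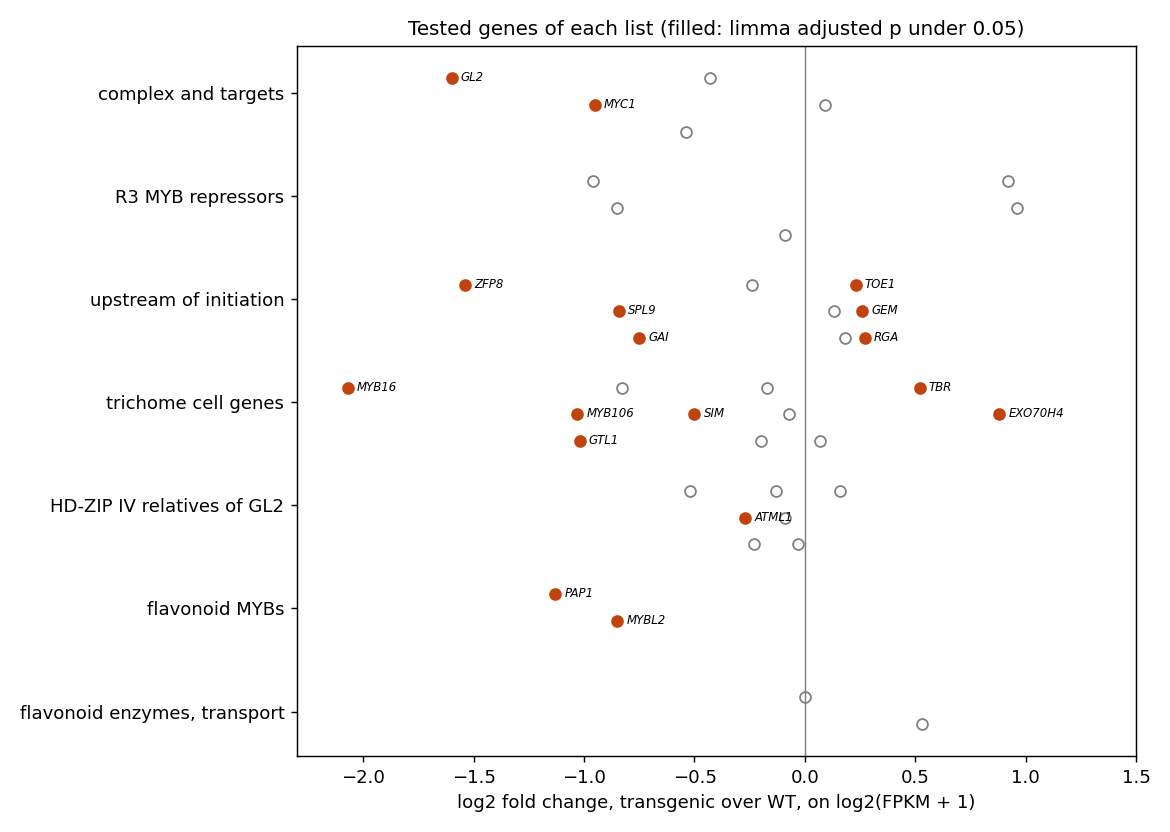
Log2 fold change, transgenic over WT, on the log2(FPKM + 1) scale (horizontal axis) of the tested genes of each list (rows), filled and named where limma's adjusted p is under 0.05 and open otherwise; vertical offsets within a row only separate the points. GL2 and MYC1 are the filled genes of the top row, and the R3 MYB repressors have none.

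Markers checked the labelled tissue and what else moved with the fall of GL2 and MYC1. For the counts below, 15.7% of all tested genes were called lower and 25.0% higher. At an unadjusted p under 0.05, 3392 of the 17093 tested genes were lower and 4898 higher. Mesophyll markers summed to 34584.9 to 35575.5 FPKM in the lines and 21729.7 to 22776.5 FPKM in WT, with 3 of 3 called higher. All 3 were also called higher after TPM. After quantile normalization only RCA was (log2 fold change 0.47, limma adjusted p = 0.000899), with RBCS1A at 0.06 (0.338) and CAB3 at 0.0. Seed markers summed to at most 0.364 FPKM in the lines and 0.0176 FPKM in WT. The 4 epidermal markers, the layer that bears trichomes, summed to 1431.9 to 1476.6 FPKM in the lines and 1746.0 to 1772.5 FPKM in WT, with 3 of 4 called lower. PDF1 among them was at 131 to 142 FPKM in the lines and 218 to 244 FPKM in WT (log2 fold change -0.75, SE 0.0566). LTP1, most of the epidermal sum, was at 1218.7 to 1250.6 FPKM in the lines and 1428.3 to 1448.6 FPKM in WT (log2 fold change -0.22, SE 0.0318). Markers of young dividing leaf tissue summed to 48.4 to 83.6 FPKM in the lines and 77.6 to 115 FPKM in WT, with 3 of 4 lower. The spread of that sum was mostly that of CYCB1;1, the 1 not called (limma adjusted p = 0.744). It had 20.2, 3.71 and 38.1 FPKM in lines 1, 2 and 3, against 49.4, 29.1 and 4.99 FPKM in WT. Meristem markers summed to 13.4 to 16.1 FPKM in the lines and 36.6 to 38.5 FPKM in WT, with 2 of 2 tested lower and WUS at 0 in all samples. Flower markers were at 4.19 to 11.1 FPKM in the lines and 9.62 to 11.2 FPKM in WT with 0 of 4 called by limma (0 at an unadjusted p under 0.05). Guard cell markers were at 14.5 to 18.0 FPKM in the lines and 13.0 to 15.4 FPKM in WT with 0 of 3 called by limma (1 higher at an unadjusted p under 0.05). Root markers were at 2.25 to 3.77 FPKM in the lines and 4.66 to 5.88 FPKM in WT, with the 1 tested, SHR, lower. SHR made up most of that sum, with means of 2.73 FPKM in the lines and 5.06 FPKM in WT. The other root markers were near 0, WER with means of 0.361 and 0.209 FPKM and RHD6 with 0 and 0.0391 FPKM. The part of epidermal, young leaf or meristem tissue in the fall of GL2 and MYC1 was not tested.

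As a description over 6 samples in 2 groups, the 5 genes with a symbol whose log2(FPKM + 1) most resembled that of GL2 were GATL6, MO1, SBP2, UMAMIT36 and CYCD3;1, with Pearson's r from 0.997 to 0.999. Of 7643 genes compared, 535 had an r over 0.95, so many genes share this pattern of 3 low and 3 high samples. UMAMIT36 had 1.13, 0.433 and 0.556 FPKM in the lines, against 9.47, 9.95 and 9.5 FPKM in WT, and CYCD3;1, a D-type cyclin gene, had 11.6, 9.34 and 10.3 FPKM in the lines, against 21.4, 20.5 and 19.1 FPKM in WT. Among the 10 genes, MYC1 came nearest to GL2 with an r of 0.9, TT8, EGL3 and TTG2 followed at 0.83, 0.82 and 0.82, and TTG1 was at -0.43.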

How the data were processed

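The authors deposited 1 table of FPKM that holds a column for each sample. TAIR10, TopHat2 and DESeq are named per the submitters' processing notes, without version or role. How the FPKM were computed, on which annotation and with which strand setting is not given in the sources used here. FPKM hold no read numbers, so depth is unknown and no counting interval is given. Of 21981 loci, 21548 matched the TAIR10.1 RefSeq annotation, used for names, positions and upstream windows.

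log2(FPKM + 1) of all 6 samples was fitted with limma 3.58.1 (R 4.3.3; mean-variance trend, no covariate), tested on simulated data, and exact permutation tests were run in scipy 1.17.1. The fit with no filter took the 21420 genes above 0 in any sample. Means carry the SD over 3 samples, and SE are limma's. Named were all 10 genes, each R3 MYB repressor in the table, up to 4 called genes of each other list by absolute fold change, and the 5 genes most like GL2. TOE1, GEM, ZFP6, SIM, TBR, HDG12, MYB113, LDOX, CYCB1;1, WER, RHD6, AT3G13530 and AT1G79850 were added after their values were seen. The members and the 14 other lists were chosen with earlier results of these data known. All 6 sample columns were used.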

Additional observations from a re-analysis of the deposited data

How the results depend on the processing

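GL2 and MYC1 were called lower under all 13 alternatives that could be fitted for each, with log2 fold changes of -2.45 to -1.44 and -1.33 to -0.79; no alternative called any of the 10 genes higher. The number of the 10 called lower was 2 as reported, 0 at a mean of at least 5 FPKM, where TTG1 alone was tested, 5 after rescaling to TPM, and 2 to 3 with a sample left out. Over all genes 4273 were higher and 2676 lower as reported, 1907 and 8363 after TPM, 3270 and 3448 after quantile normalization, and 3778 to 3926 and 2050 to 2470 with a sample left out. TTG1 turned to -0.07 after quantile normalization and -0.28 after TPM. GL3, fitted with no filter, turned to 0.0 with a pseudocount of 0.1, 0.09 after quantile normalization, and ranged from -0.06 to 0.09 with a sample left out (0.07 without line 1, 0.09 without WT replicate 2). The GL3 ratio to TTG1 ranged from -0.18 to 0.03 with a sample left out; no other ratio turned. The cause of these shifts was not tested. With the title number as a replicate block, the same 2 of the 10 genes were called lower (GL2 adjusted p = 0.000476, MYC1 0.00848, limma), the repressors ETC1 (0.0493) and TCL2 (0.0177) were called lower and TCL1 (0.0154) higher, and TOE1 (0.0536) and GEM (0.0649) were not called; deviations of same-numbered samples correlated at -0.035, 0.049 and -0.023, so the numbers were not taken to pair samples. Levels under 1 FPKM limit what can be said of GL1, MYB5, GL3 and TT8, and of how low GL2 and TTG2 were in the lines.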
